A study of Gallus gallus with 8 samples.

Results

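Solute carriers (SLC genes) are the membrane proteins that move ions, sugars, amino acids, neurotransmitters, metals and vitamins across the plasma membrane and the membranes of organelles. They were compared here between the 2 sensory epithelia of the chick inner ear. Genes were taken by name, as those that the authors' deposited sheets call SLC followed by a digit. Each was represented by the probe set so named that had the highest mean signal. The array named 206 such genes with 391 probe sets, among 38439 probe sets without controls. A log2 signal above 4 was required on 4 or more of the 8 arrays, and 92 of the 206 genes passed. These 92 genes are the members, and the other 114 were not tested. A further 38 carriers passed the filter but are called by other names on the sheets. They were recognised through RefSeq symbols or through the sheets' own descriptions, are counted apart, and include the phosphate carrier SLC34A2.

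The study hybridised RNA from the utricle, a balance organ, and from the cochlea, the hearing organ, with 4 arrays per tissue that the labels call biological replicates. Embryos had been incubated at 38 °C until day 20 to 21, and each sample pooled 10 to 20 epithelia. The labels give no strain or sex and describe epithelia microdissected down to hair cells and supporting cells. Signals are log2 GCRMA values, so a difference of 1 is a 2-fold difference. The number of arrays limits the precision, and with a mixture of cells on each array, fewer cells of a type and less RNA per cell cannot be told apart.

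Carriers fall into families that share ancestry, and a family often serves a substrate class. Many are driven by the sodium gradient that the sodium pump maintains, and others exchange ions or follow the membrane potential. In the inner ear of mammals, carriers of chloride, bicarbonate and protons help to keep the fluids around the hair cells, glutamate carriers load synaptic vesicles in hair cells and clear the released transmitter, and glucose carriers feed cells that lie away from blood vessels.

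Hair cell markers were called in both directions: of 10 listed, 6 were found and tested, with 2 called toward the utricle and 4 toward the cochlea. Their summed log2 signal was 12.44 to 13.10 in the utricle and 13.82 to 14.01 in the cochlea. Sums here and below add unlogged signals, so the brightest genes weigh most. Most of the cochlear hair cell sum came from CIB2 (11.17 against 13.50, utricle first), while OTOF was higher in the utricle (11.16 against 10.00). Of 7 supporting cell markers, 4 were called toward the utricle and 2 toward the cochlea, with summed signals of 15.84 to 15.95 in the utricle and 15.70 to 15.95 in the cochlea. Of 4 tested neuronal markers, 2 were called toward the cochlea (NEFM and NEFL, neurofilament subunits) and 1 toward the utricle. The summed signal was 10.14 to 10.25 in the utricle and 13.11 to 13.20 in the cochlea. Most of the cochlear sum came from NEFM (2.59 against 12.83). NEFL was at 7.24 against 9.82, SNAP25 at 8.54 against 8.05, and ELAVL4, which was not called, at 9.26 against 9.20. Glial markers were uneven among the utricle arrays, at a summed 9.80 to 12.67 in the utricle and 10.18 to 10.64 in the cochlea, with 1 called higher and 1 lower in the utricle of 4 tested. Melanocyte markers summed to 12.59 to 12.82 in the utricle and 12.55 to 12.78 in the cochlea, with MITF and DCT called higher in the utricle of 4 tested. SOX10, which is not particular to melanocytes and is shared with glia, was bright and not called (12.43 against 12.59, adjusted p = 0.205). Most of the melanocyte sum in both tissues came from SOX10, so it cannot show whether melanocytes differ between the tissues. Fibroblast markers, with 0 of 2 tested called, summed to 8.34 to 9.90 in the utricle and 6.74 to 9.09 in the cochlea, and cartilage and bone markers, with 1 called higher and 2 lower in the utricle of 3 tested, to 10.99 to 11.50 in the utricle and 11.68 to 12.68 in the cochlea. Endothelial markers summed to 10.82 to 11.41 in the utricle and 10.83 to 11.13 in the cochlea, and CDH5, KDR, TEK, TIE1 and ESAM were near background. Both tested endothelial markers were called, PECAM1 toward the utricle (11.03 against 10.61, adjusted p = 0.0301) and EGFL7 toward the cochlea (7.13 against 8.51, adjusted p = 0.0126). Dark and transitional cell markers are given with SLC26A4 and erythrocyte markers with SLC4A1. Utricle arrays 2 and 3 also carried the cochlear gene CALB1, at 7.47 and 6.89 against 2.49 and 2.50 on arrays 1 and 4. The cochlea arrays read 15.33 to 15.42 for CALB1. NEFM, DCT, the supporting cell marker JAG1, the cartilage marker ACAN and the glial marker S100B passed the filter through only 1 tissue, and so had to differ to be tested. S100B was the glial marker called lower in the utricle (3.53 against 4.25). The part of any of these cell types in the differences below was not tested.

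Members were called in both directions. By limma with Benjamini-Hochberg adjustment over 16223 probe sets, at an adjusted p under 0.05, 27 members were higher in the utricle, 22 were higher in the cochlea and the other 43 missed the threshold. The 53.3% of members called stands beside 51.5% of all tested probe sets, with 26.4% of probe sets toward the utricle and 25.1% toward the cochlea. Calls of at least 2-fold numbered 11 in the utricle and 8 in the cochlea, or 20.7% of members, where 21.2% of probe sets had such a call (11.2% and 10.0%). The tissues did not overlap in 45 members (48.9%), against 48.7% of all probe sets. In each of these shares the members were close to the background of the array. Their median log2 difference, utricle minus cochlea, was 0.02 and that of all probe sets 0.01, and the median size of the difference was 0.41 and 0.41.

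Of the members, 76 were above 4 on all 8 arrays and 8 passed the filter through only 1 tissue. Those 8, SLC4A7, SLC4A8, SLC25A21, SLC26A4 and SLC35F4 in the utricle and SLC9A4, SLC16A5 and SLC22A7 in the cochlea, had to differ to be tested. All 8 are among the 19 calls of at least 2-fold and the 45 members without overlap. The members nearest inside the filter were SLC12A7, SLC4A1 and SLC39A12, whose arrays next to the cutoff, ranked 4 from the top, read 4.06, 4.16 and 4.36. Nearest outside, at the same rank, were SLC38A9, SLC44A5 and SLC1A1, at 3.82, 3.81 and 3.61. Across members, which share arrays and are not replicates, the correlation of utricle arrays with each other was 0.987 to 0.994, that of cochlea arrays 0.988 to 0.994 and that between tissues 0.863 to 0.891. The median SD over 4 arrays was 0.20 in the utricle and 0.19 in the cochlea. In the array names, 1 array of each tissue had the smaller of 2 prefixes. All 49 called members differed in the same direction in that pair and among the 6 arrays of the larger prefix, where 36 remained called. The calls were made on these same 8 arrays, so a member without overlap had to keep its direction, and this is no separate check. Within those 6 arrays the counts were 18 and 18. On all 8 arrays with the prefix as a block they were 27 and 23.

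**Figure D1:**
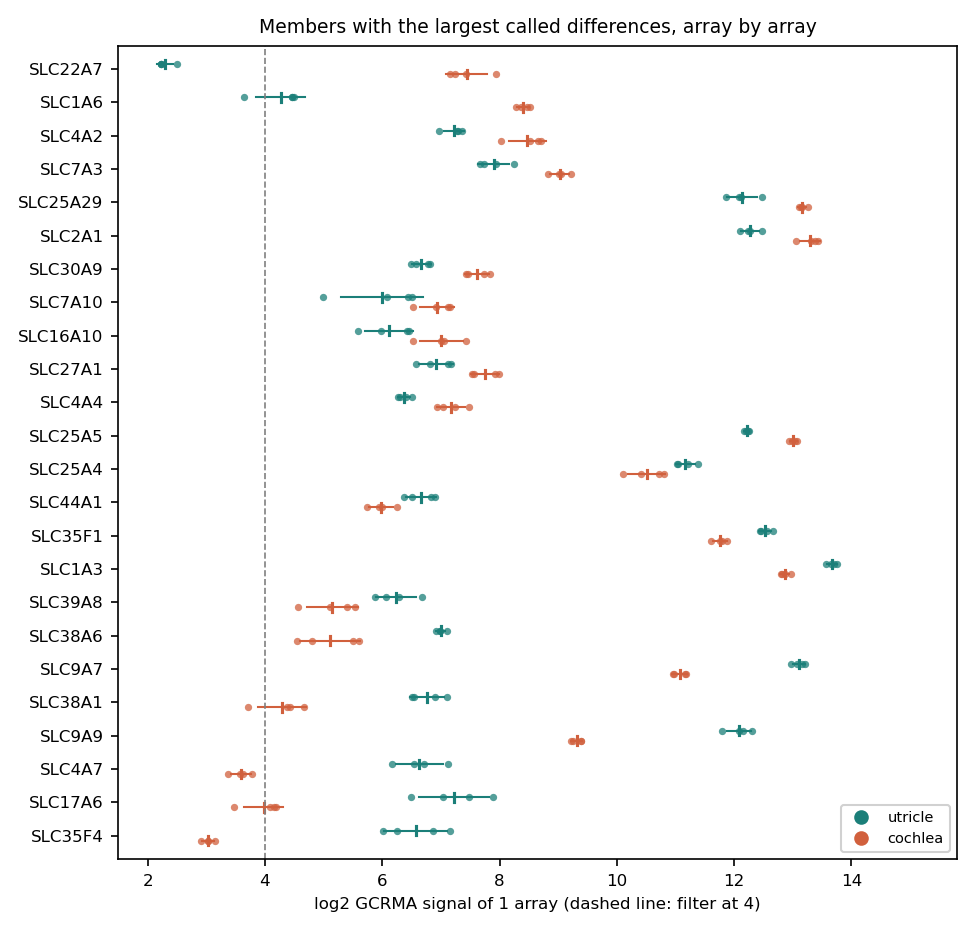
Log2 GCRMA signal (x axis) of the 24 members with the largest called differences (y axis, 12 per direction), taken from those with no overlap whose brighter tissue averaged 6 or more. Points are arrays, ticks are means and horizontal lines are SDs over 4 arrays; the dashed line is the filter at 4. SLC22A7 sat below 3 on all utricle arrays and above 7 on all cochlea arrays, and SLC35F4 showed the reverse order.

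Acid-base and chloride carriers set the pH of cells, organelles and fluids. Of 15 tested, 7 were called toward the utricle and 4 toward the cochlea, with a median difference of 0.24. Beside this and the class counts below stand 51.5% of all tested probe sets called, 26.4% toward the utricle and 25.1% toward the cochlea. Among the 7, SLC4A7, SLC4A8 and SLC26A4 passed the filter through the utricle alone and so had to differ to be tested. SLC12A7 and SLC12A8 are also among the 7, with limits given below. Whether any class differs from other genes was not tested. Calls in both directions occurred within the sodium-proton exchangers and within the bicarbonate carriers. Among members, the cochlea side of the exchangers was SLC9A4 alone, which passed the filter through the cochlea alone and so had to differ. The utricle side of the bicarbonate carriers was SLC4A7 and SLC4A8. SLC9A9, an exchanger of endosomes, read 12.09, 11.80, 12.15 and 12.30 in the utricle and 9.40, 9.26, 9.40 and 9.22 in the cochlea. It was 6.81-fold higher in the utricle (log2 difference 2.77, 95% interval 2.50 to 3.03, adjusted p = 2.85e-07), with no overlap. SLC9A7, an exchanger of the Golgi and endosomes, was 4.1-fold higher there, at 13.10 ± 0.10 against 11.07 ± 0.12 (log2 mean ± SD over 4 arrays, utricle first, here and below, adjusted p = 4.69e-07). Its 3 tested probe sets differed by 2.03 to 2.25, all toward the utricle. Toward the cochlea stood SLC9A4, a plasma membrane exchanger best known from the stomach, whose arrays read 2.75, 2.40, 2.40 and 2.40 in the utricle and 5.22, 6.09, 6.06 and 5.95 in the cochlea. All 4 utricle arrays lay below the filter, so the fold is a bound, at least 3.56-fold (adjusted p = 2.22e-06). SLC9B2, a more distant sodium-proton exchanger recognised through RefSeq, was 4.76-fold higher in the cochlea (5.45 ± 0.49 against 7.70 ± 0.19, adjusted p = 6.04e-05). SLC9A2, the chromosomal neighbour of SLC9A4 in the RefSeq order, was not called (7.88 ± 0.13 against 8.04 ± 0.056, log2 difference -0.16, adjusted p = 0.175). SLC9A8, a Golgi exchanger recognised by its description, was not called either (12.84 ± 0.15 against 12.65 ± 0.11, adjusted p = 0.172).

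Bicarbonate carriers were called in both directions as well, though both carriers called toward the utricle had to differ to be tested. SLC4A7, a sodium-bicarbonate cotransporter, read 6.71, 7.12, 6.54 and 6.17 in the utricle and 3.79, 3.37, 3.62 and 3.58 in the cochlea. It was higher in the utricle by at least 6.21-fold (adjusted p = 3.04e-06), and no cochlea array reached 4. SLC4A8, a sodium-driven chloride-bicarbonate exchanger, was higher in the utricle by at least 2.21-fold (5.14 ± 0.60 against 3.08 ± 0.19, adjusted p = 0.000274). In the cochlea the chloride-bicarbonate exchanger SLC4A2 read 8.02, 8.52, 8.71 and 8.65, against 6.96, 7.29, 7.36 and 7.27 in the utricle. SLC4A2 was 2.38-fold higher in the cochlea (log2 difference -1.25, 95% interval -1.63 to -0.88, adjusted p = 0.000268), with no overlap. SLC4A4, a cotransporter of sodium and bicarbonate, was 1.74-fold higher in the cochlea (6.37 ± 0.10 against 7.17 ± 0.24, adjusted p = 0.000915). SLC4A1, the anion exchanger of red blood cells, stayed near 4 in both tissues (4.12 ± 0.12 against 4.26 ± 0.11, adjusted p = 0.283). It was the only tested gene among 13 erythrocyte markers, of which 8 were not found under the listed names, and EPB42 and RHAG had means of at most 2.47.

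SLC26A4, or pendrin, exchanges chloride for bicarbonate and iodide, and its loss in humans causes deafness with an enlarged vestibular aqueduct. The arrays read 4.77, 4.89, 4.95 and 5.38 in the utricle and 2.46, 2.46, 2.46 and 2.46 in the cochlea. All utricle arrays stood above 4 and all cochlea arrays at background, giving a difference of at least 1.99-fold (adjusted p = 9.35e-07). Pendrin is known from cells next to the sensory patches in mammals. Of the other dark and transitional cell markers, KCNQ1, KCNE1 and ESRRB were near background in both tissues, with means of at most 2.70. BSND, a chloride channel subunit, read 6.29 ± 1.31 and 5.59 ± 1.61 and was not called (adjusted p = 0.532). The summed signal of the list was 10.12 to 10.71 in the utricle and 9.73 to 10.41 in the cochlea, so the tissues overlapped. Most of that sum came from 1 listed carrier, SLC12A2 (10.17 against 9.93), so it cannot show whether these cells differ between the tissues. SLC26A11, an anion carrier of the same family, was higher in the cochlea by 1.67-fold (adjusted p = 0.00058). SLC12A2, the sodium-potassium-chloride cotransporter that drives potassium secretion into endolymph, read 9.98, 10.45, 10.21 and 10.02 in the utricle and 9.66, 10.25, 9.87 and 9.93 in the cochlea. The tissues overlapped, and the gene was not called (adjusted p = 0.214), or was called with the replicate number as a block (adjusted p = 0.0438) at the same difference of 0.24. SLC12A8 was called 1.25-fold higher in the utricle (adjusted p = 0.0298), but the gene number of its brightest probe set belongs to ZNF148 in RefSeq, and the other 4 of its probe sets were not called. SLC12A7 was called higher in the utricle near the filter and with overlap (4.41 ± 0.45 against 3.82 ± 0.16, at least 1.31-fold, adjusted p = 0.0463). That call was lost within the larger array prefix (0.104) and without utricle arrays 2 and 3 (0.0684).

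**Figure D2:**
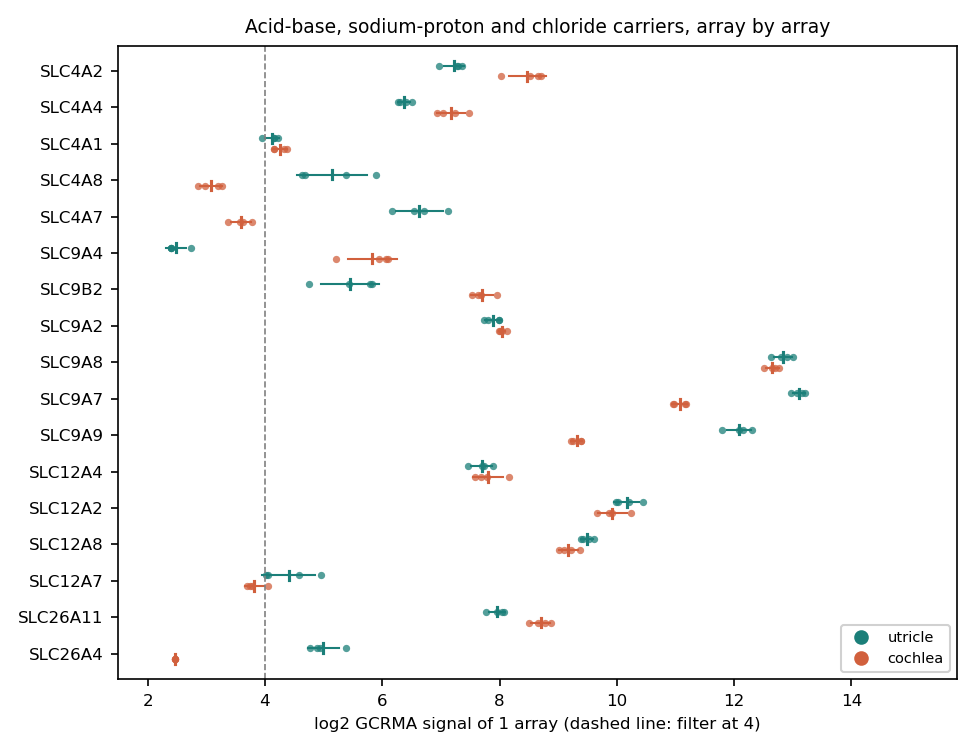
Log2 GCRMA signal (x axis) of every tested gene of families SLC4, SLC9, SLC12 and SLC26 that carries ions, with SLC9B2 and SLC9A8 added through RefSeq or descriptions (y axis). Points are arrays, ticks are means and lines are SDs over 4 arrays. Within SLC4 and within SLC9, cochlea points lie to the right for the upper genes and utricle points for the lower ones, and the genes between them, among them SLC4A1, SLC9A2 and SLC9A8, were not called.

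Phosphate carriers were reached only outside the strict names. SLC34A2, a sodium-phosphate cotransporter of epithelia such as lung and intestine, had the largest difference of all 130 genes examined. Its arrays read 3.15, 4.27, 3.92 and 3.22 in the utricle and 12.68, 12.95, 12.79 and 12.77 in the cochlea. The cochlea arrays had an SD of 0.11, and every utricle array was far below them. The gene was higher in the cochlea by at least 424-fold (adjusted p = 2.44e-08). Only utricle array 2 exceeded 4, so SLC34A2 passed the filter because of the cochlea arrays. Utricle arrays 2 and 3, which also carried CALB1, read higher for SLC34A2 than arrays 1 and 4, and the reason was not tested. SLC20A2, a phosphate carrier found in most tissues, was 1.33-fold higher in the cochlea (10.68 ± 0.14 against 11.10 ± 0.061, adjusted p = 0.00535). None of the 5 genes that the sheets themselves name in this class passed the filter.

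Glutamate and other amino acid carriers were called in both directions, 4 of 12 toward the utricle and 3 toward the cochlea (median 0.03). SLC1A3, the glutamate uptake carrier that supporting cells of the mammalian ear use around hair cells, read 13.56, 13.75, 13.65 and 13.70 in the utricle and 12.80, 12.87, 12.96 and 12.81 in the cochlea. It was 1.75-fold higher in the utricle (log2 difference 0.81, 95% interval 0.62 to 0.99, adjusted p = 5.4e-05), with no overlap and strong signal in both tissues. Its relative SLC1A6, known from Purkinje cells of the cerebellum, read 4.45, 4.47, 4.50 and 3.64 in the utricle and 8.36, 8.28, 8.51 and 8.47 in the cochlea. Toward the cochlea this was at least 16.5-fold (adjusted p = 4.92e-07). SLC1A2, the main glutamate uptake carrier of forebrain astrocytes, recognised through RefSeq, was also higher in the cochlea (4.24 ± 0.26 against 5.27 ± 0.18, at least 2.0-fold, adjusted p = 0.000458). SLC1A4, which exchanges neutral amino acids, was higher in the utricle by 1.54-fold (adjusted p = 0.0194).

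The glutamine and neutral amino acid carriers of family SLC38 that were members were both higher in the utricle. SLC38A1, which takes up glutamine, read 6.55, 6.90, 6.51 and 7.10 in the utricle and 3.71, 4.38, 4.42 and 4.67 in the cochlea, a difference of at least 5.27-fold (adjusted p = 2.54e-05). SLC38A6 was 3.68-fold higher there (6.99 ± 0.08 against 5.11 ± 0.51, adjusted p = 0.000166). SLC38A2, which neighbours SLC38A1 on the chromosome and was recognised by its description, read 11.73, 12.71, 11.44 and 11.67 in the utricle, a wide spread, and 11.999, 12.48, 11.68 and 11.17 in the cochlea (adjusted p = 0.902). In family SLC7, 2 of 5 tested members were called, both higher in the cochlea, and the 5 include SLC7A6OS, which is not a carrier. SLC7A3, a carrier of cationic amino acids, was 2.19-fold higher in the cochlea (7.90 ± 0.26 against 9.03 ± 0.16, adjusted p = 0.000229). SLC7A10, a carrier of small neutral amino acids, was higher in the cochlea by 1.9-fold (adjusted p = 0.041), a call lost without utricle array 4 (0.0708) or cochlea array 1 (0.0903), 3 (0.0801) or 4 (0.0954). SLC7A5, a carrier of large neutral amino acids, was not called (7.89 ± 0.40 against 8.22 ± 0.52, adjusted p = 0.372).

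Carriers of transmitters included the vesicular glutamate transporters. SLC17A8, the one on which synaptic vesicles of mammalian hair cells depend, read 9.12, 7.55, 8.71 and 8.99 in the utricle and 8.23, 7.74, 7.81 and 7.54 in the cochlea. The tissues overlapped and the gene was not called (log2 difference 0.76, adjusted p = 0.086). Without utricle array 2 it was called (0.00158) at a difference of 1.11, and likewise without utricle arrays 2 and 3 together (0.00338). SLC17A6, a vesicular glutamate transporter of neurons, read 7.89, 6.49, 7.03 and 7.48 in the utricle and 4.16, 4.09, 3.48 and 4.19 in the cochlea. No cochlea array came near the utricle arrays, and SLC17A6 was higher in the utricle by at least 8.65-fold (adjusted p = 2.93e-05). SLC17A5, the lysosomal exporter of sialic acid, recognised through RefSeq, was 2.32-fold higher in the utricle (10.79 ± 0.23 against 9.57 ± 0.19, adjusted p = 0.000132). SLC6A2, the noradrenaline reuptake carrier, was also recognised through RefSeq. It read 6.83, 7.14, 7.25 and 6.99 in the utricle and 11.60, 11.58, 11.69 and 11.60 in the cochlea. Both groups were tight, and SLC6A2 was 23.6-fold higher in the cochlea (log2 difference -4.56, 95% interval -4.80 to -4.33, adjusted p = 1.2e-08). SLC29A4, a monoamine carrier of the plasma membrane from a nucleoside carrier family, differed the same way, at at least 9.17-fold (4.01 ± 0.28 against 7.32 ± 0.27, adjusted p = 1.16e-06). SLC6A9, a glycine carrier, was higher in the cochlea by 1.39-fold (adjusted p = 0.00205), and the vesicular monoamine transporter SLC18A1 was not called (5.79 ± 0.071 against 5.98 ± 0.32, adjusted p = 0.32). The neuronal marker NEFM, for comparison with SLC6A2 and SLC17A6, was at 2.59 against 12.83, and SNAP25, a synaptic protein, at 8.54 against 8.05. The other tested neuronal markers were NEFL, at 7.24 against 9.82, and ELAVL4, at 9.26 against 9.20 and not called. NEFM passed the filter through the cochlea alone and so had to differ to be tested. The part of neurons in the differences of these carriers was not tested.

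Sugar carriers were called only toward the cochlea among the members, 3 of 7 tested, where 25.1% of all probe sets were called that way. Their median was -0.37, against 0.01 for all probe sets, and whether the class differs from other genes was not tested. The 3 calls were SLC2A1, SLC5A11 and SLC45A1. Of these, SLC45A1 lay near the filter with overlap (4.08 ± 0.27 against 4.63 ± 0.30, adjusted p = 0.0347). That call was lost within the larger array prefix (0.0722) and without utricle arrays 2 and 3 (0.153). SLC2A1, the glucose carrier of barrier epithelia and many growing cells, read 12.48, 12.10, 12.28 and 12.23 in the utricle and 13.38, 13.06, 13.31 and 13.44 in the cochlea. It was 2.03-fold higher in the cochlea (log2 difference -1.02, 95% interval -1.29 to -0.76, adjusted p = 0.000114). SLC2A3, a high-affinity glucose carrier known from neurons, recognised by its description, was 2.81-fold higher there (6.52 ± 0.16 against 8.02 ± 0.23, adjusted p = 2.56e-05). SLC5A11, a sodium-driven carrier of myo-inositol, was higher in the cochlea by 1.86-fold (adjusted p = 0.00363). Among carriers recognised through RefSeq, SLC2A11L5 was higher in the cochlea by 1.42-fold (adjusted p = 0.016) and the intracellular glucose carrier SLC2A8 1.21-fold higher in the utricle (adjusted p = 0.0476). The SLC2A8 call was lost without any 1 of 7 of the 8 arrays, the exception being cochlea array 4, with adjusted p of up to 0.118.

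Monocarboxylate carriers of family SLC16 pass lactate, pyruvate and related compounds with protons, or amino acids. SLC16A5 read 2.22, 2.22, 2.26 and 2.23 in the utricle and 5.67, 5.10, 4.72 and 5.65 in the cochlea, and was higher in the cochlea by at least 2.44-fold (adjusted p = 4.41e-06). The utricle arrays were at background. SLC16A10, a carrier of aromatic amino acids, was 1.86-fold higher in the cochlea (6.11 ± 0.41 against 7.01 ± 0.37, adjusted p = 0.0133), and SLC16A9, recognised by its description, was 1.78-fold higher (adjusted p = 7.85e-05). SLC16A3, a lactate exporter of glycolytic cells, was not called (9.05 ± 0.42 against 9.83 ± 0.68, adjusted p = 0.0863, or 0.0291 with the replicate block).

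Mitochondrial carriers formed the class with the most members. Of 17 tested, 5 were called toward the utricle and 6 toward the cochlea (median 0.06, median size 0.38). The ADP/ATP carriers, which exchange cytosolic ADP for mitochondrial ATP, divided. SLC25A4 was 1.58-fold higher in the utricle (11.17 ± 0.17 against 10.51 ± 0.31, adjusted p = 0.00948), a call lost without utricle arrays 2 and 3 together (0.0858). SLC25A6 was 1.3-fold higher in the utricle (14.95 ± 0.036 against 14.58 ± 0.016, adjusted p = 0.00186). SLC25A5 read 12.16, 12.21, 12.24 and 12.26 in the utricle and 13.05, 12.98, 12.93 and 13.07 in the cochlea, 1.73-fold higher in the cochlea (adjusted p = 3.25e-05) with no overlap. The sheets disagree on that probe set, which 1 of them calls SLC25A6, and these paralogs are alike in sequence, so the assignment of their signal is uncertain.

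SLC25A29, a mitochondrial carrier of basic amino acids, read 12.08, 12.12, 11.86 and 12.47 in the utricle and 13.25, 13.15, 13.10 and 13.13 in the cochlea, 2.04-fold higher in the cochlea (adjusted p = 0.00019). SLC25A15, the ornithine carrier of the urea cycle, recognised through RefSeq, was 3.03-fold higher in the cochlea (7.81 ± 0.18 against 9.41 ± 0.42, adjusted p = 0.00021). Toward the utricle, SLC25A36, a carrier of pyrimidine nucleotides recognised by its description, read 12.53, 12.52, 12.37 and 12.54 in the utricle and 10.49, 10.60, 10.32 and 10.40 in the cochlea. It was 4.11-fold higher there (adjusted p = 3.73e-07). SLC25A21, the carrier of oxodicarboxylates, was higher in the utricle by at least 2.06-fold (5.05 ± 0.15 against 3.54 ± 0.29, adjusted p = 5.55e-05), and SLC25A32, a carrier of folate and FAD, 1.42-fold (adjusted p = 0.00343). The phosphate carrier SLC25A3, which feeds ATP synthase, was not called (12.76 ± 0.066 against 12.71 ± 0.059, log2 difference 0.06, adjusted p = 0.555).

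Organic ion, peptide and fatty acid carriers gave 2 calls in the utricle and 2 in the cochlea among 5 tested. SLC22A7, an organic anion carrier known from liver and kidney, read 2.22, 2.50, 2.22 and 2.22 in the utricle and 7.24, 7.16, 7.93 and 7.43 in the cochlea. All utricle arrays were at background, and SLC22A7 was higher in the cochlea by at least 10.8-fold (adjusted p = 7.61e-08). SLC27A1, a fatty acid carrier, was 1.79-fold higher in the cochlea (6.92 ± 0.28 against 7.76 ± 0.24, adjusted p = 0.00333). SLC15A1, the proton-driven peptide carrier of the intestine, recognised through RefSeq, read 6.92, 6.87, 6.64 and 6.42 in the utricle and 3.83, 3.83, 3.09 and 3.80 in the cochlea. It was higher in the utricle by at least 6.55-fold (adjusted p = 3.02e-06), and all cochlea arrays lay below 4. It passed the filter through the utricle alone and so had to differ to be tested. SLC15A4, a lysosomal carrier of histidine and peptides, was higher in the utricle by 1.71-fold (adjusted p = 0.0207), with overlap, a call lost without utricle array 1 (0.0524) or cochlea array 2, 3 or 4 (up to 0.051). SLC22A23 was higher in the utricle by 1.45-fold (adjusted p = 0.0245, or 0.0655 without utricle array 3). SLC10A7, of the bile acid carrier family and recognised by its description, was higher in the utricle by 1.66-fold (adjusted p = 0.00056).

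Carriers of nucleotide sugars supply the Golgi with substrates for glycosylation. The class was taken by family number, SLC35 with the acetyl-CoA carrier SLC33A1. Of 11 tested in this class, 3 were called toward the utricle, 1 toward the cochlea and 7 in neither direction. The 4 calls were SLC35F4, SLC35F1, SLC33A1 and SLC35E3, so the counts do not show a difference in carriers of nucleotide sugars. SLC35F4, whose substrate is not established, read 6.24, 7.15, 6.01 and 6.87 in the utricle and 3.15, 3.04, 3.04 and 2.90 in the cochlea. Cochlea arrays were below 4, and the difference toward the utricle was at least 5.93-fold (adjusted p = 4.41e-06). SLC35F1, a relative of it, was 1.71-fold higher in the utricle (12.53 ± 0.10 against 11.76 ± 0.12, adjusted p = 0.000164), and SLC35E3 was higher in the cochlea by 1.39-fold (adjusted p = 0.0144). SLC33A1, which brings acetyl-CoA into the endoplasmic reticulum, was higher in the utricle by 1.51-fold (adjusted p = 0.000745). Through RefSeq, SLC35C2, linked to fucose transfer in the Golgi, was higher in the utricle by 1.58-fold (adjusted p = 0.00184), SLC35G2 1.46-fold (0.000788) and SLC35A3, a carrier of UDP-N-acetylglucosamine, 1.36-fold (0.00645).

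Metal carriers gave 2 calls among 7 members. SLC39A8, an importer of zinc and manganese, was 2.11-fold higher in the utricle (6.23 ± 0.34 against 5.15 ± 0.43, adjusted p = 0.0054). SLC30A9, of the zinc exporter family, was 1.93-fold higher in the cochlea (6.67 ± 0.16 against 7.62 ± 0.20, adjusted p = 0.000296). The copper importer SLC31A1 was not called (9.01 ± 0.24 against 9.22 ± 0.13, adjusted p = 0.215). Carriers recognised apart included SLC48A1, a heme carrier, 1.61-fold higher in the cochlea (adjusted p = 0.000634), and the zinc carrier SLC30A6, 1.62-fold higher in the utricle (adjusted p = 0.00488). A second, dimmer probe set of SLC30A6 was not called (6.43 ± 0.36 against 6.46 ± 0.021, adjusted p = 0.86). The zinc carrier SLC30A5 was higher in the utricle by 1.31-fold (adjusted p = 0.0272, or up to 0.0698 without utricle array 1 or 4 or cochlea array 2, 3 or 4). The magnesium carrier SLC41A2 was 1.26-fold higher in the cochlea with overlap (adjusted p = 0.0376, rising to as much as 0.0887 without utricle array 2, 3 or 4 or cochlea array 1, 3 or 4).

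Among carriers of nucleosides, vitamins and choline, 2 of 5 members were called toward the utricle and 0 toward the cochlea. The choline carrier SLC44A1 was 1.6-fold higher in the utricle (6.66 ± 0.25 against 5.98 ± 0.21, adjusted p = 0.00594). A further probe set that only RefSeq assigns to it was brighter, at 11.56 ± 0.28 against 10.39 ± 0.31. It differed by 1.16 in the same direction (adjusted p = 0.00089). The lysosomal nucleoside carrier SLC29A3 was higher in the utricle by 1.48-fold (adjusted p = 0.0178), with overlap. SLC44A3, a relative of SLC44A1, was not called (adjusted p = 0.0865, or 0.0237 without utricle array 4), nor was the folate carrier SLC19A1 (9.50 ± 0.16 against 9.62 ± 0.069, adjusted p = 0.343). Both tested calcium exchangers were not called. Of these, SLC24A5, the exchanger of melanosomes that affects skin colour in vertebrates, read 7.37, 7.28, 7.36 and 7.31 in the utricle and 7.38, 7.15, 7.29 and 7.31 in the cochlea. The tissues overlapped (adjusted p = 0.657), beside melanocyte markers of which DCT was near background in the cochlea (4.59 against 2.79), SLC45A2 and MLANA were at background in both, and MITF was higher in the utricle (9.70 against 8.05, adjusted p = 1.07e-05). The 3 members that are not carriers were SLC9A3R2, a scaffold protein (adjusted p = 0.71), SLC7A6OS (adjusted p = 0.0875) and SLC4A1AP. SLC4A1AP was called 1.27-fold higher in the utricle (adjusted p = 0.049, or 0.0629 with the replicate block and up to 0.119 without utricle array 1, 2 or 4 or cochlea array 1, 3 or 4). Its second tested probe set went the other way (log2 difference -0.28, adjusted p = 0.405), and the mean of its probe sets differed by 0.03 (adjusted p = 0.873).

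**Figure D3:**
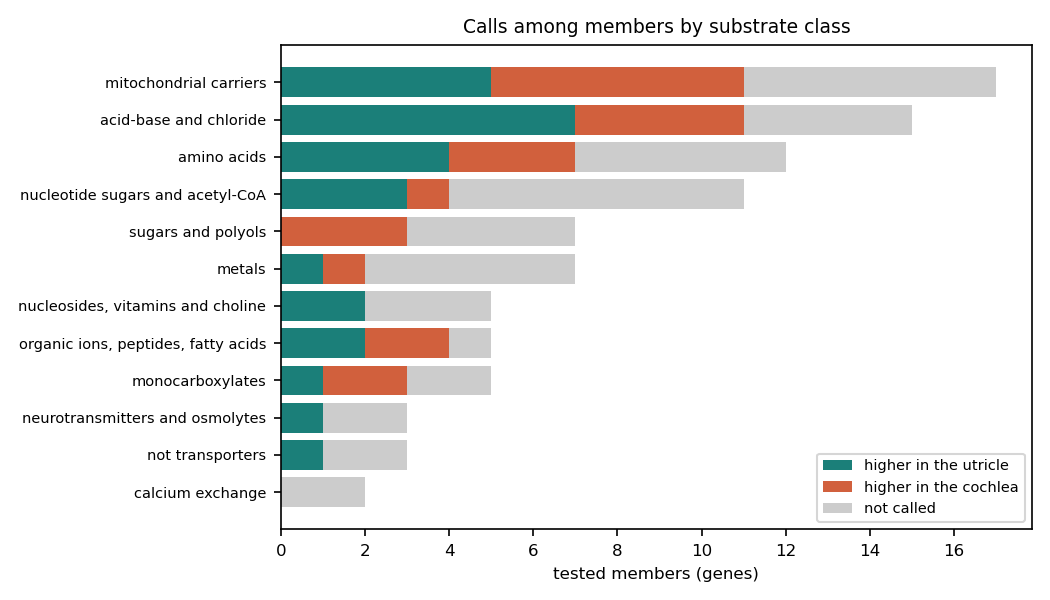
Number of tested members (x axis) called higher in the utricle, called higher in the cochlea or not called, for each substrate class with a tested member (y axis). Calls are at an adjusted p under 0.05 in limma. Classes with 11 or more members held calls in both directions, and the sugar class held 3 calls, all toward the cochlea. Among those 3, SLC45A1 lay near the filter and its tissues overlapped.

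By family number, the 31 families with a tested member included 8 with calls in both directions, 8 with calls only toward the utricle, 6 only toward the cochlea and 9 with none. The families called in both directions were SLC1, SLC4, SLC9, SLC16, SLC22, SLC25, SLC26 and SLC35. In SLC9, SLC22 and SLC26, 1 direction rests on SLC9A4, SLC22A7 or SLC26A4 alone, which passed the filter through only 1 tissue. In SLC4, the utricle calls were SLC4A7 and SLC4A8, which passed it that way, and SLC4A1AP, which is not a carrier. Members that passed through only 1 tissue had to differ to be tested. The family counts also include SLC7A6OS and SLC9A3R2, which are not carriers. In SLC12, called only toward the utricle, the calls were SLC12A7, near the filter, and SLC12A8, whose brightest probe set has an uncertain name. Most families had only 1 or 2 tested members, so a family called in 1 direction rests on few genes.

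Counted as a whole, the 38 carriers recognised only through RefSeq or descriptions gave 11 calls toward the utricle and 13 toward the cochlea, 63.2% against the 51.5% of all probe sets. Of these, 3 and 7 were at least 2-fold (26.3%, against 21.2% of all probe sets), and the tissues did not overlap in 23 (60.5%, against 48.7%). The same 24 calls had the same direction under both array prefixes, and 23 remained called within the larger. As for the members, that direction was largely fixed because the calls were made on these same arrays. Together with the members, 38 of 130 genes were called toward the utricle and 35 toward the cochlea.

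**Figure D4:**
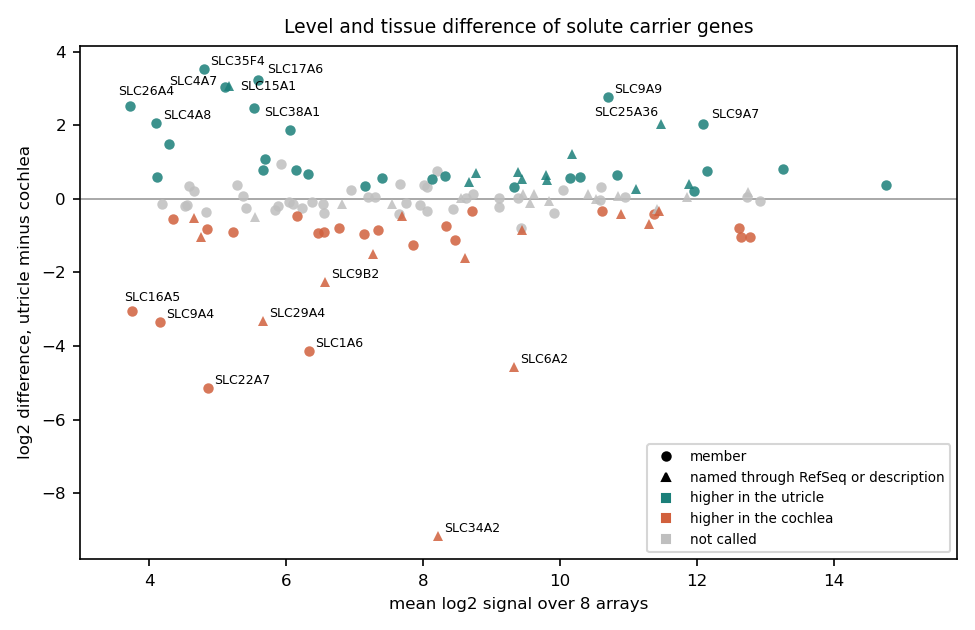
Log2 difference, utricle minus cochlea (y axis), against the mean log2 signal over 8 arrays (x axis) for 92 members (circles) and 38 carriers named through RefSeq or descriptions (triangles). Teal and orange mark calls toward the utricle and the cochlea, grey marks genes not called, and labels mark differences over 1.9. Plotted values are fitted differences, not bounds. SLC34A2 lies lowest at -9.16, with 3 of 4 utricle arrays below 4, and SLC9A9, SLC9A7 and SLC25A36 are the labelled utricle genes with a mean above 10.

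The pumps and regulators that set the gradients for carriers were read from a list of 29 genes, of which 13 were tested. Of these, 1 was called toward the utricle, 3 toward the cochlea and 9 in neither direction (median -0.10). ATP1B1, a beta subunit of the sodium pump, was higher in the cochlea by 2.26-fold, at 13.06 ± 0.19 against 14.24 ± 0.19 (adjusted p = 9.15e-05). WNK1, a kinase that regulates chloride carriers of family SLC12, was higher in the cochlea by 1.83-fold (adjusted p = 0.0115). Proton pump subunits differed in both directions, with ATP6V0A1 1.51-fold higher in the utricle (adjusted p = 0.00574) and ATP6V1E1 1.2-fold higher in the cochlea (adjusted p = 0.0317). None of the organic anion transporters of the SLCO family that were found passed the filter, and 8 listed genes were not found under these names.

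Of genes with known roles in hearing, pigment or general transport that were to be named in any case, SLC4A11, SLC19A2, SLC6A6, SLC8A1 and SLC45A2 were on the array and did not pass the filter. Their highest value on any array was 3.75, for SLC4A11. SLC26A5, the motor protein of mammalian outer hair cells, and SLC22A4, SLC52A3, SLC9A3R1, SLC3A2 and SLC7A8 were not found under these names and are not analysed here. Of the 114 genes that were not tested, 9 exceeded 4 on at least 1 array.

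The authors' deposited table of their SAM comparison, a permutation-based test, listed 16 of the 27 members called higher in the utricle and 16 of the 22 called higher in the cochlea, in the same direction. It listed 3 of the 43 members not called here. For SLC34A2 the authors' deposited table gives a 555-fold difference toward the cochlea, and for SLC6A2 a 24.1-fold difference. SLC9A7 and SLC4A2 are not in the authors' deposited table of SAM calls. The authors' deposited detection sheet counts SLC9A7 as present on 4 utricle and 4 cochlea arrays, and gives no count for the SLC4A2 probe set.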

How the data were processed

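Chicken Affymetrix arrays, 4 per tissue, were used. The deposited values are log2 signals that the authors made with GCRMA, per the submitters' processing notes and the file headers, with no version stated. The value table and the authors' workbook hold the same log2 values, and 136 other per-array columns of the workbook were not used. The authors' deposited SAM sheets give a fold as a ratio, and the deposited detection sheet counts arrays with a MAS 5.0 present call. These are used only where named.

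Names came from the deposited sheets, and RefSeq (GRCg7b) served for names and gene order only. Members, lists and tests were chosen with earlier results of these data known. Utricle minus cochlea differences were fitted for probe sets above log2 4 on 4 or more of 8 arrays, using lmFit and then eBayes (limma 3.58.1, R 4.3.3). Two-sided p-values were adjusted by Benjamini and Hochberg over 16223 probe sets. Errors are SDs over 4 arrays, intervals are 95%. Where an array of the dimmer tissue read under 4, values under 4 were raised to 4 and the fold is a bound, written "at least". The script was tested on simulated data. Genes named in the text were the 12 largest called differences per direction with no overlap whose brighter tissue averaged 6 or more, up to 2 called genes per class and direction by adjusted p with the brightest of the class, and 20 fixed genes. The carriers named through RefSeq or descriptions followed the same rule. Members named outside it, or to complete a family or an exception, were chosen after their values were seen: SLC1A4, SLC4A8, SLC9A2, SLC12A7, SLC12A8, SLC16A3, SLC18A1, SLC25A3, SLC26A11, SLC33A1, SLC45A1 and SLC7A6OS. Of 29 listed pumps and regulators, up to 3 per direction were named. Some genes that these rules name are not reported here.

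Tissues share replicate numbers. Deviations from the tissue means correlated at 0.552, 0.48, 0.404 and 0.144 for numbers 1 to 4, all above 0.1, which meets the bar set for treating equal numbers as pairs. The fit behind the printed values has no block, and the fit with the replicate number as a block is an alternative, given where it changes the call of a gene described. The basis is the data, not the labels, and for cochlea array 4 the closer match was utricle array 3 (0.304). Python 3.11.15, pandas 2.3.3 and matplotlib 3.10.9 made tables and plots.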

Additional observations from a re-analysis of the deposited data

Results flagged for a closer look

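For the 71 named genes, 142 groups of 4 arrays were searched for 1 array far from the other 3 by Dixon's test, and 13 stood out, where chance marks about 1 group in 20. Utricle array 4 read 3.64 for SLC1A6, against 4.45 to 4.50 on the others. Cochlea array 1 read 5.22 for SLC9A4 (others 5.95 to 6.09), 5.50 for SLC15A4 (others 5.18 to 5.23) and 7.39 for SLC22A23 (others 7.98 to 8.08). Cochlea array 4 read 6.68 for SLC4A1AP (others 7.05 to 7.13). Cochlea array 3 read 3.48 for SLC17A6 (others 4.09 to 4.19), 3.09 for SLC15A1 (others 3.80 to 3.83) and 11.69 for SLC6A2 (others 11.58 to 11.60). Utricle array 3 read 12.37 for SLC25A36 (others 12.52 to 12.54). At background, where such gaps are small, 1 array differed for SLC22A7 in the utricle (2.50, others 2.22), SLC9A4 in the utricle (2.75, others 2.40), SLC16A5 in the utricle (2.26, others 2.22 to 2.23) and SLC26A4 in the cochlea (2.46, others 2.46). The causes were not tested.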

How the results depend on the processing

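The main counts of 27 members called toward the utricle and 22 toward the cochlea became 18 and 17 with no filter on the adjustment, 21 and 25 with an equal median per array, 24 and 24 with quantile normalization, 26 and 23 with trend and robust eBayes, 24 and 25 with the mean of all probe sets of a gene and 27 and 22 with adjustment over 1 probe set per gene. A filter at 6 left 68 members, of which 20 and 18 were called (7 and 6 at least 2-fold), because fewer genes were tested. The replicate block gave 29 and 26 (3 members lost their call and 9 gained one). Leaving out 1 array gave 19 to 26 and 19 to 23, and for calls of at least 2-fold 10 to 12 and 6 to 12 against 11 and 8. Without utricle arrays 2 and 3, an alternative chosen after seeing the data, the counts were 21 and 19. Adding the carriers named through RefSeq or descriptions, also chosen after seeing the data, gave 38 and 35, and 14 and 15 of at least 2-fold, because more genes were counted. Of 49 calls, 31 (16 toward the utricle, 15 toward the cochlea) held in every one of 18 alternatives that kept the gene's probe set, among them all 19 of at least 2-fold. Those 19 include the 8 members that passed the filter through only 1 tissue and had to differ to be tested. Of 71 named genes, 52 kept direction and call in up to 19 alternatives, 13 lost a call somewhere and 3 gained one. Directions turned only in 3 genes that were not called: SLC24A5 (-0.00153 with an equal median), SLC9A3R2 (0.00647 with quantile normalization, 0.0313 without utricle arrays 2 and 3) and SLC38A2 (-0.22 to 0.27 without 1 array, -0.13 without utricle arrays 2 and 3). The cause was not tested. Signals near 4 are close to background, so small differences there are least certain.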

Other observations

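Of 33 members with several tested probe sets, 27 had them all in the same direction and 24 with the same call, and 0 had calls in opposite directions. The largest disagreement was in SLC36A1, a proton-driven amino acid carrier of lysosomes. Its brighter probe set did not differ past the threshold (7.22 ± 0.22 against 7.17 ± 0.07, adjusted p = 0.774), and the other read 2.45 ± 0.11 in the utricle, below the filter, and 6.93 ± 0.19 in the cochlea (limma adjusted p = 1.94e-08). That probe set passed the filter through the cochlea alone and so had to differ to be tested. SLC35B4, a nucleotide sugar carrier, was not called by its brightest probe set (adjusted p = 0.814), and its second differed by -1.01 (adjusted p = 0.000481). A probe set that only RefSeq assigns to the fatty acid carrier SLC27A2 read 6.38 ± 0.23 in the utricle and 7.41 ± 0.28 in the cochlea (adjusted p = 0.000895), while the probe sets that the sheets name SLC27A2 did not pass the filter. These genes were singled out after their values were seen.

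The authors' deposited table counts SLC9A4 as present on 4 of 4 utricle arrays, although its GCRMA signal there was 2.49 ± 0.17. For SLC6A9 the authors' deposited table counts 0 utricle and 3 cochlea arrays as present, at signals of 7.45 ± 0.12 against 7.93 ± 0.067. The reason was not tested. In the RefSeq gene order, SLC6A2 lies next to SLC12A4, a potassium-chloride cotransporter that was not called (adjusted p = 0.577), and SLC25A5 next to SLC25A43, which was not called either (adjusted p = 0.206, or 0.0499 with the replicate block).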
